A study of Mus musculus with 8 samples.

Results

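The 10 Frizzled genes of the mouse, Fzd1 to Fzd10, were followed by gene name in a table of 35275 genes counted in 8 tumours. All 10 were found once each, and all 10 had enough counts to be tested. The tumours come from a conditional mouse model in which an adenovirus carrying Cre recombinase was injected into the peritoneal cavity, and the study asked how the transcriptome differs between genotypes of mesothelioma. Every tumour carries floxed Nf2 and Cdkn2a alleles, which the labels describe as Nf2-/- and cdkn2a-/-. In 4 primary peritoneal tumours (13, 59, 61 and 14A) Pak2 was floxed as well and is labelled Pak2 -/-. A secondary tumour, 14B, has the same genotype. In 3 primary peritoneal tumours (19, 20 and 127) Pak2 was wild-type. The virus deletes floxed alleles only in cells it reaches, so each library also holds RNA of host cells, and no age, sex or animal is given. Nothing in the labels ties a tumour to an animal, so p-values measure only the spread between these samples, some of which may share an animal.

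Frizzled proteins are multi-pass membrane receptors whose extracellular cysteine-rich domain binds Wnt ligands. With the co-receptors Lrp5 or Lrp6 they recruit Dishevelled and keep beta-catenin from being degraded, and without these co-receptors they act in planar cell polarity and in calcium signalling. By sequence the family falls into the subfamilies Fzd1, Fzd2 and Fzd7, then Fzd5 and Fzd8, then Fzd3 and Fzd6, and last Fzd4, Fzd9 and Fzd10. The ubiquitin ligases Znrf3 and Rnf43 remove Frizzled from the cell surface, and secreted Frizzled-related proteins carry a similar Wnt-binding domain without a membrane anchor.

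Libraries held 13469851 (tumour 14B) to 20402401 (tumour 14A) counts, of which the 10 Frizzled genes took 1466 to 8263. Pak2 transcripts were not lower with the Pak2-null label, at 186, 165, 131 and 238 CPM (counts scaled to a common library size) in tumours 13, 59, 61 and 14A. Wild-type tumours 19, 20 and 127 had 128, 90.1 and 92.7 CPM. Counts per gene do not show whether the floxed part was removed, which would need reads per exon. Nf2, labelled -/- in every tumour, was also present, from 74.6 CPM in tumour 14A to 142 CPM in wild-type tumour 19. Xist, expressed from the inactive X chromosome of females, reached at most 1.33 CPM in the tumours labelled Pak2-null, against 26.6 to 459 CPM in the wild-type tumours. The Y-linked gene Ddx3y lay between 84.2 and 104 CPM in every tumour labelled Pak2-null, against 1.62, 1.24 and 116 CPM in wild-type tumours 19, 20 and 127. Wild-type tumour 127 thus carried both, with Xist at 26.6 CPM beside Ddx3y at 116 CPM, and wild-type tumours 19 and 20 carried Xist with little Ddx3y. High Xist and the wild-type label cannot be told apart in these tumours, while Ddx3y did not follow the label because of tumour 127. The part of sex in the group differences was not tested. Of 10 mesothelial markers Calb2 was nearly absent, at most 0.308 CPM in any tumour, while the lowest and highest mesothelin (Msln) values were 1.11 and 132 CPM in primary tumours labelled Pak2-null, against 22.8 and 26.2 CPM in wild-type tumours. The summed mesothelial markers overlapped, at 104 to 459 CPM against 133 to 423 CPM. Pdpn gave most of that sum in tumours 13 (170 of 180 CPM), 59 (283 of 408 CPM), 20 (85.0 of 149 CPM) and 127 (97.3 of 133 CPM). It gave a smaller part in tumours 61 (101 of 459 CPM), 14A (20.9 of 104 CPM) and 19 (124 of 423 CPM). In tumour 13 Krt8, Krt18, Upk3b and Lrrn4 were each at most 0.124 CPM, while Wt1 and Krt19 were at 2.91 and 5.51 CPM.

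Several marker lists moved with particular tumours. The 9 skeletal muscle markers summed to 21.2 to 733 CPM in the 4 Pak2-null-labelled primaries, against 2710 CPM in wild-type tumour 19, 29194 CPM in tumour 20 and 20458 CPM in tumour 127. All 9 were lower in each of the 4 tumours labelled Pak2-null than in each wild-type tumour, and none was at 0. Such a separation, lower with the Pak2-null label, held for 8.93% of all 15412 tested genes. The 7 fibroblast markers summed to 1988 CPM in tumour 14A and 3131 CPM in tumour 14B, against 13640 to 19918 CPM in the other 6 tumours. Of 8 leukocyte markers 7 were found, and they summed to 3151 CPM in tumour 14A and 3150 CPM in tumour 14B, against 361 to 940 CPM in the others. Smooth muscle and pericyte markers summed to 199 to 1149 CPM in the 4 Pak2-null-labelled primaries, against 1329 to 1797 CPM in the wild-type tumours. Of these 7 markers 3 had groups that did not overlap, all lower with the Pak2-null label, beside the same 8.93% of all genes. Pdgfrb was highest in tumour 13, at 378 CPM against 162 to 322 CPM in the wild-type tumours. Adipocyte markers (26.4 to 174 CPM against 116 to 777 CPM), nerve and Schwann cell markers (15.8 to 608 CPM against 40.6 to 72.4 CPM) and epithelial markers (3.10 to 117 CPM against 10.3 to 110 CPM) overlapped.

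Fzd1 and Fzd2 gave the most Frizzled RNA per length in both groups. On the scale of CPM per kilobase of the deposited gene length, Fzd1 averaged 23.8 ± 14.8 in the primary tumours labelled Pak2-null and 23.2 ± 7.48 in the wild-type tumours, and Fzd2 averaged 18.2 ± 12.6 and 22.5 ± 7.52 (mean ± SD, n = 4 and n = 3). Fzd1 was above Fzd2 in 2 of 4 and in 2 of 3 tumours, so the order of this pair lay within their spread. Fzd7 followed at 7.93 ± 2.57 and 11.5 ± 2.47, below Fzd2 in 3 of 4 tumours labelled Pak2-null and in 3 of 3 wild-type tumours.

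The middle of the order differed between the groups. In the tumours labelled Pak2-null, Fzd6 and Fzd4 came next at 4.13 ± 3.44 and 4.12 ± 1.03 CPM per kilobase, then Fzd8 at 2.69 ± 1.45 and Fzd5 at 2.13 ± 0.782. In the wild-type tumours the next were Fzd8 at 10.8 ± 9.22 and Fzd4 at 10.7 ± 3.66, then Fzd9 at 4.51 ± 3.09, Fzd6 at 3.62 ± 0.432 and Fzd5 at 3.38 ± 1.21. Ranges of neighbours overlapped here, except that Fzd4 was above Fzd9 in all 3 wild-type tumours. Fzd5 was above Fzd3 in all 4 tumours labelled Pak2-null and in all 3 wild-type tumours, without overlap. Fzd3 (0.422 ± 0.327 and 0.897 ± 0.231) and Fzd10 (0.123 ± 0.123 and 0.373 ± 0.0734) were the scarcest in the wild-type tumours, and Fzd9, at 0.152 ± 0.122, joined them in the tumours labelled Pak2-null. These levels depend on the gene length, since the exons of GENCODE M21 span 6720 bases for Fzd4, 5974 for Fzd8 and 12804 for Fzd3, against deposited lengths of 3685, 3346 and 4157. With those exon lengths Fzd4 averaged 2.26 ± 0.563 and 5.85 ± 2.01 CPM per kilobase, Fzd8 1.51 ± 0.812 and 6.07 ± 5.16, and Fzd3 0.137 ± 0.106 and 0.291 ± 0.0751, with the Pak2-null label before wild-type.

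**Figure D1:**
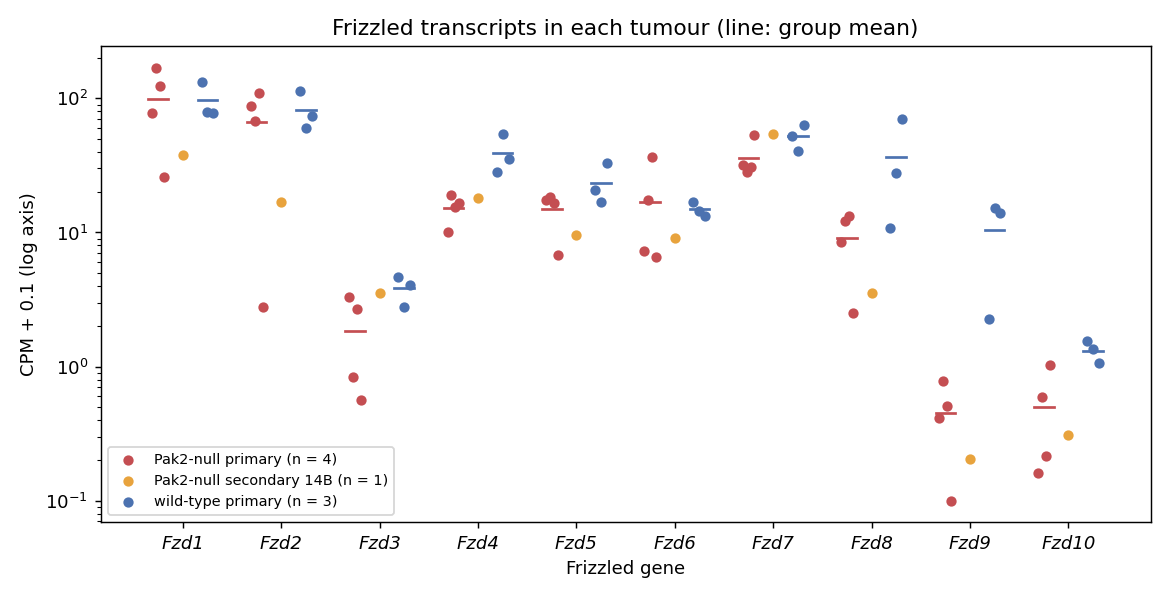
Each point is 1 tumour, with CPM plus 0.1 on a log axis for the 10 Frizzled genes, in primary tumours labelled Pak2-null (red), secondary tumour 14B (orange) and wild-type primary tumours (blue), and lines are group means. The red and blue points of Fzd4, Fzd9 and Fzd10 do not overlap, and the lowest Fzd2 point (2.67 CPM) is tumour 14A.

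Fzd9, Fzd4 and Fzd10, which form a subfamily, were the members whose groups did not overlap, all with lower values in the tumours labelled Pak2-null. Of all 15412 genes tested, 8.93% had groups that did not overlap with the label Pak2-null lower. Fzd9 is known in mice for a role in bone formation. It is encoded by 1 exon on the minus strand at chr5:135248938-135251230 (GRCm38, as all coordinates here). It had 0.310, 0.679, 0.404 and 0 CPM in tumours 13, 59, 61 and 14A (5, 11, 7 and 0 counts), against 2.18, 15.02 and 13.8 CPM in wild-type tumours 19, 20 and 127 (47, 242 and 215 counts). Secondary tumour 14B had 1 count. Wild-type tumour 19 was thus well below the other two wild-type tumours, yet above every tumour labelled Pak2-null. A count of 0 in tumour 14A allows a level of up to 3 counts, or 0.154 CPM, by counting error alone.

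The log2 fold change of Fzd9, labelled Pak2-null over wild-type, was -4.85 (SE 1.15), with an adjusted p of 0.129 (edgeR quasi-likelihood, Benjamini-Hochberg). DESeq2 and limma-voom with sample quality weights called it lower (adjusted p = 1.71e-04 and 0.0348), and the adjusted p ran from 1.71e-04 to 0.751 over 21 alternatives. With tumours 20 and 127 left out it was -2.58, an alternative chosen after seeing the data that sets the 4 tumours against tumour 19 alone. With tumours 19 and 20 left out, which leaves tumour 127 as the wild-type sample, it was -5.26. Both the Fzd9 values and the summed skeletal muscle markers were highest in tumours 20 and 127, next in tumour 19 and lower in every tumour labelled Pak2-null. The part of muscle RNA in this difference was not tested. In bulk tumours fewer cells of a type and less RNA per cell cannot be told apart.

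Fzd4 is the receptor for Norrin as well as for Wnts and is known for its role in growth of retinal vessels. Its gene lies on the plus strand at chr7:89404366-89410110 and has 2 exons in GENCODE M21. It stood at 9.97, 18.9, 15.3 and 16.6 CPM in tumours 13, 59, 61 and 14A, against 28.2, 54.3 and 35.3 CPM in wild-type tumours 19, 20 and 127, and at 18.0 CPM in tumour 14B. Every tumour labelled Pak2-null, 14B included, lay below the lowest wild-type tumour. The log2 fold change was -1.35 (SE 0.32), with an adjusted p of 0.131 (edgeR quasi-likelihood, Benjamini-Hochberg). DESeq2 and limma-voom with sample quality weights called it lower (adjusted p = 0.00629 and 0.0330), with a range of 0.00629 to 0.686 over 21 alternatives. Without tumours 20 and 127 the log2 fold change was -0.84, and without tumours 19 and 20 it was -1.20.

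Fzd4 is an endothelial receptor among its other sites. The 9 endothelial markers, none of which was at 0, summed to 275 to 695 CPM in the primary tumours with the Pak2-null label, against 387 to 905 CPM in the wild-type tumours, and the sums overlapped. Of the 9 markers 8 had a lower fitted level with the Pak2-null label, and 1, Tek, had groups that did not overlap, beside the 8.93% of all genes. In tumour 14A Pecam1 gave 438 of the summed 653 CPM, while Cdh5 was at 46.8 CPM and Emcn at 3.44 CPM. Both Fzd4 and the summed skeletal muscle markers were highest in tumour 20, then in tumours 127 and 19, and lower in every tumour labelled Pak2-null. Among the primaries with that label the orders differed, with Fzd4 highest in tumour 59 and the muscle markers in tumour 61. The parts of endothelial and muscle RNA in the Fzd4 difference were not tested. Fzd10, a scarce member, stood at 0.0619, 0.494, 0.116 and 0.925 CPM in tumours 13, 59, 61 and 14A (1, 8, 2 and 18 counts), against 1.44, 1.24 and 0.963 CPM in wild-type tumours 19, 20 and 127 (31, 20 and 15 counts). The groups came closest between tumours 14A and 127, at 0.925 and 0.963 CPM. Its log2 fold change was -1.56 (SE 0.86), with an adjusted p of 0.506 (edgeR quasi-likelihood, Benjamini-Hochberg). It was -2.39 without tumour 14A and -2.43 with tumour 14B in its place.

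The promoters of the 2 members with the lowest p are shown to compare their base make-up. Each window runs from 250 bases before to 50 bases after the RefSeq start (GRCm38.p6), 5′ to 3′ on the gene's strand, with the GC box GGGCGG on either strand in capitals. Overlapping matches were counted separately.
Fzd9 (chr5:135250998-135251297, minus strand): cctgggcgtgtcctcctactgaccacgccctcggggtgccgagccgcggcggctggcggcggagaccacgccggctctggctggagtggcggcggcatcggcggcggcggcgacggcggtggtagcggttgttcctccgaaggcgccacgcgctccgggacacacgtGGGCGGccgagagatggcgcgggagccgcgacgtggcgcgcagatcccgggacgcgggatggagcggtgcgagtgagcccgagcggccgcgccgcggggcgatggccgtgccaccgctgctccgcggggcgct
Fzd4 (chr7:89404116-89404415, plus strand): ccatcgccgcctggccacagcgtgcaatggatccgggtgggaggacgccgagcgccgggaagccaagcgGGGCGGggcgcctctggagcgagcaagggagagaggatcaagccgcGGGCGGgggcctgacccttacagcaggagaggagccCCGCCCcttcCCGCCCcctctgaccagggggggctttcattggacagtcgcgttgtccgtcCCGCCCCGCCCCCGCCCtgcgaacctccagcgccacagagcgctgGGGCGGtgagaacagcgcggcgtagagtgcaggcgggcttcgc
Both windows are rich in CpG, with 53 and 32 CpG dinucleotides against a median of 7 over 32851 mouse promoters, and 99.5% and 90.5% of promoters had fewer. The GC box occurred once in the Fzd9 window and 8 times in the Fzd4 window, and 35.7% of all promoters held at least 1. Neither window held the TCF/LEF core CTTTGA (16% of all promoters), the TEAD core GGAATG (14.7%), the E-box CAGCTG (16.3%) or TATAAA (13.6%), searched on both strands. The motifs were chosen after the expression values were seen. The RefSeq start of Fzd9 lies 183 bases inside the deposited gene, while that of Fzd4 is the deposited start. Promoters were found for 6 of the 10 genes. Fzd1, Fzd10, Fzd5 and Fzd7 had 16, 45, 38 and 24 CpG dinucleotides, and Fzd1 was the member with matches to CTTTGA and TATAAA, 1 each.

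Fzd8, whose cysteine-rich domain served as a structural model of Wnt binding, varied widely within the wild-type group. It stood at 8.36, 12.2, 13.1 and 2.42 CPM in tumours 13, 59, 61 and 14A, against 10.7, 27.6 and 70.5 CPM in wild-type tumours 19, 20 and 127. Tumour 19 lay within the range of the tumours labelled Pak2-null, and tumour 127 was far above all others. The log2 fold change was -1.99 (SE 0.74; adjusted p = 0.320, edgeR quasi-likelihood, Benjamini-Hochberg). It was -1.09 without tumour 127, -0.20 without tumours 20 and 127, and -2.94 without tumours 19 and 20. Its subfamily partner Fzd5, a receptor needed for Paneth cell maturation in mice, stood at 17.5, 18.4, 16.5 and 6.73 CPM, against 20.7, 16.6 and 32.8 CPM. Here the groups overlapped, with tumour 14A lowest and tumour 127 highest. For Fzd5 the difference on the log2 scale was -0.64 (SE 0.42) with an adjusted p of 0.572 from edgeR, and exons of the antisense gene Gm38058 overlap it, so its counts are uncertain.

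Fzd3 and Fzd6 are the receptors best known for planar polarity, Fzd3 in axon guidance and Fzd6 in the pattern of hair. Fzd3 stood at 3.22, 0.741, 2.60 and 0.463 CPM in tumours 13, 59, 61 and 14A, against 4.54, 2.67 and 3.98 CPM in wild-type tumours 19, 20 and 127. Tumours 59 and 14A were low, and tumour 13 lay inside the wild-type range. Fzd6 stood at 7.12, 17.3, 36.6 and 6.42 CPM, against 16.7, 14.4 and 13.2 CPM. The wild-type tumours lay close together, while the tumours labelled Pak2-null spread to both sides of them. On the log2 scale Fzd3 differed by -1.07 (SE 0.72) and Fzd6 by 0.20 (SE 0.62), and edgeR gave them adjusted p of 0.584 and 0.918. Fzd6 was at -0.50 without tumour 61. Exons of the antisense gene Gm26704 overlap Fzd6, so its counts are uncertain too.

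The abundant subfamily of Fzd1, Fzd2 and Fzd7 did not separate the groups. Fzd1 stood at 78.0, 170, 123 and 25.6 CPM in tumours 13, 59, 61 and 14A, against 133, 79.0 and 78.4 CPM in wild-type tumours 19, 20 and 127. Fzd2, a receptor used by Wnt5a, stood at 87.7, 67.1, 109 and 2.67 CPM, against 113, 60.0 and 74.2 CPM. For both genes 3 of the 4 tumours labelled Pak2-null lay at or near wild-type levels and tumour 14A lay below all others. Fzd7, which marks several stem cell populations and responds to Wnt7a in muscle stem cells of mice, stood at 31.7, 28.3, 30.4 and 53.3 CPM, against 52.8, 40.5 and 62.8 CPM. For Fzd7 it was tumour 14A that lay within the wild-type range, and tumours 13, 59 and 61 that lay below it.

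The log2 fold changes were 0.06 (SE 0.58) for Fzd1, -0.29 (SE 0.92) for Fzd2 and -0.51 (SE 0.29) for Fzd7, with adjusted p from 0.520 to 0.978 (edgeR quasi-likelihood, Benjamini-Hochberg). For Fzd2 an interval of 2 SE on each side ran from -2.13 to 1.56. Without tumour 14A the log2 fold change was 0.37 for Fzd1, 0.11 for Fzd2 and -0.77 for Fzd7. Fzd2 therefore changed its sign with tumour 14A, and Fzd1 was at -0.35 without tumour 59.

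**Figure D2:**
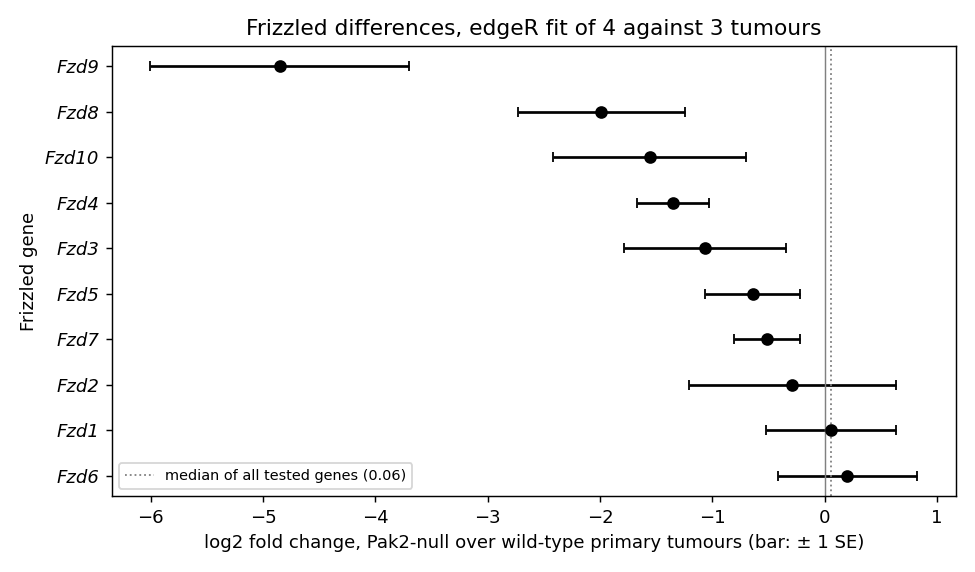
Log2 fold change of each Frizzled gene, primary tumours labelled Pak2-null over wild-type primary tumours, with bars of 1 SE from the edgeR fit. A dotted line marks the median of all tested genes (0.06). The 8 lower genes lie below 0, from Fzd9 at -4.85 to Fzd2 at -0.29, while Fzd1 and Fzd6 lie at 0.06 and 0.20.

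Over the family, 8 of 10 genes had a lower and 2 a higher fitted level in the tumours labelled Pak2-null, with a median log2 fold change of -0.85. Over all 15412 tested genes 45.5% were lower, and the median was 0.06. At an adjusted p under 0.05 edgeR called 0 of the 10 Frizzled genes, beside 0.0714% of all tested genes. At an unadjusted p under 0.05 there were 3, all lower (Fzd9, Fzd4 and Fzd8), beside 8.55% of all genes. DESeq2 and limma-voom with sample quality weights each called Fzd4 and Fzd9, beside 5.44% and 4.59% of all genes called lower, and limma-voom without weights called 0, beside 0.130%. Fzd9 and Fzd4 stood at ranks 426 and 441 of all genes by p. Because the members share tumours, their directions are not independent.

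The make-up of Frizzled RNA set tumours 14A and 14B apart. As a share of the summed CPM per kilobase, Fzd7 made up 43.8% in tumour 14A and 33.3% in tumour 14B, against 7.66% to 14.0% in the other 6 tumours. Fzd2 made up 2.72% and 12.7%, against 20.3% to 39.9% in the others. The first-ranked receptor was Fzd7 in tumours 14A and 14B, Fzd2 in tumours 13 and 61, and Fzd1 in tumour 59. Among the wild-type tumours it was Fzd1 in tumours 19 and 20, and Fzd8 in tumour 127 (21.3%). The rank of Fzd8 in tumour 127 rests on its deposited length of 3346 bases, against 5974 in GENCODE M21. By CPM Fzd8 was below Fzd1 and Fzd2 in that tumour, at 70.5 against 78.4 and 74.2. Fzd9 made up at most 0.363% in any tumour labelled Pak2-null, against 1.002%, 8.11% and 6.09% in wild-type tumours 19, 20 and 127.

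The summed Frizzled level was 60.1, 81.6, 86.4 and 26.8 CPM per kilobase in tumours 13, 59, 61 and 14A, against 94.8, 80.8 and 98.8 in wild-type tumours 19, 20 and 127. The groups overlapped, since tumours 59 and 61 lay above tumour 20, and tumour 14A was lowest. Secondary tumour 14B was at 35.9. The low Fzd1 and Fzd2 of tumours 14A and 14B went with low summed fibroblast markers and high summed leukocyte markers, whose part in these values was not tested. The lists were not uniform. Of the leukocyte markers Ptprc (1585 and 1457 CPM) and Itgam (1026 and 1205 CPM) made up most of the sum in tumours 14A and 14B. Csf1r, at 368 and 438 CPM there, was below its 441 to 661 CPM in tumours 13, 59 and 61. Wild-type tumours 19, 20 and 127 had Csf1r at 510, 274 and 178 CPM. Of the fibroblast markers Pdgfra stood at 35.9 and 48.7 CPM and none was at 0. Pi16, at 34.1 and 28.7 CPM, was above its 3.84 to 24.4 CPM in tumours 13, 59 and 61. It was below its 58.8, 118 and 59.9 CPM in wild-type tumours 19, 20 and 127.

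**Figure D3:**
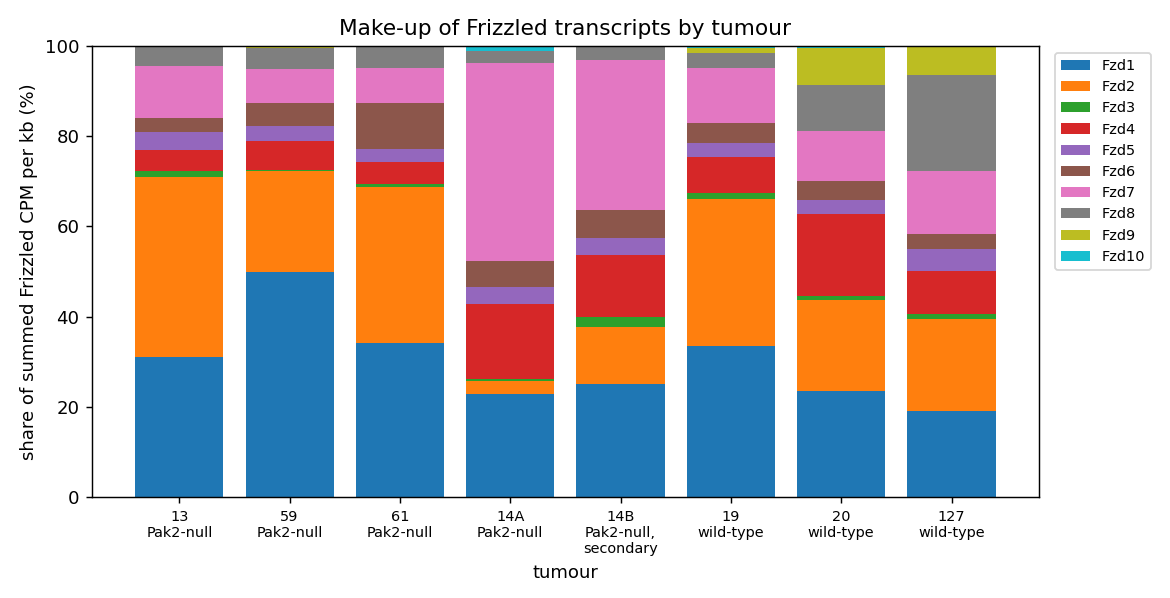
Share of each Frizzled gene in the summed Frizzled CPM per kilobase of deposited gene length, in percent, with 1 bar per tumour. Fzd7 fills 43.8% of the bar of tumour 14A and 33.3% of that of tumour 14B, and Fzd9 is visible in the wild-type tumours, at 1.002% to 8.11%.

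Secondary tumour 14B, a single sample with no test, had 8 of 10 Frizzled genes within the range of the 4 primary tumours of its label. The share of all tested genes within that range was not computed, so this count is a description only. Tumour 14B was below every wild-type tumour in 8 of 10, beside 33.4% of all tested genes. The exceptions were the same genes in both counts, Fzd3 at 3.42 CPM and Fzd7 at 54.2 CPM. Against primary tumour 14A it was higher in log2 CPM by 2.60 for Fzd3 and 2.59 for Fzd2 (16.7 against 2.67 CPM), and lower for Fzd10 alone, at -1.67 on 2 against 18 counts. Fzd4 and Fzd7 differed from tumour 14A by 0.12 and 0.02. The labels do not say whether tumours 14A and 14B come from 1 animal.

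**Figure D4:**
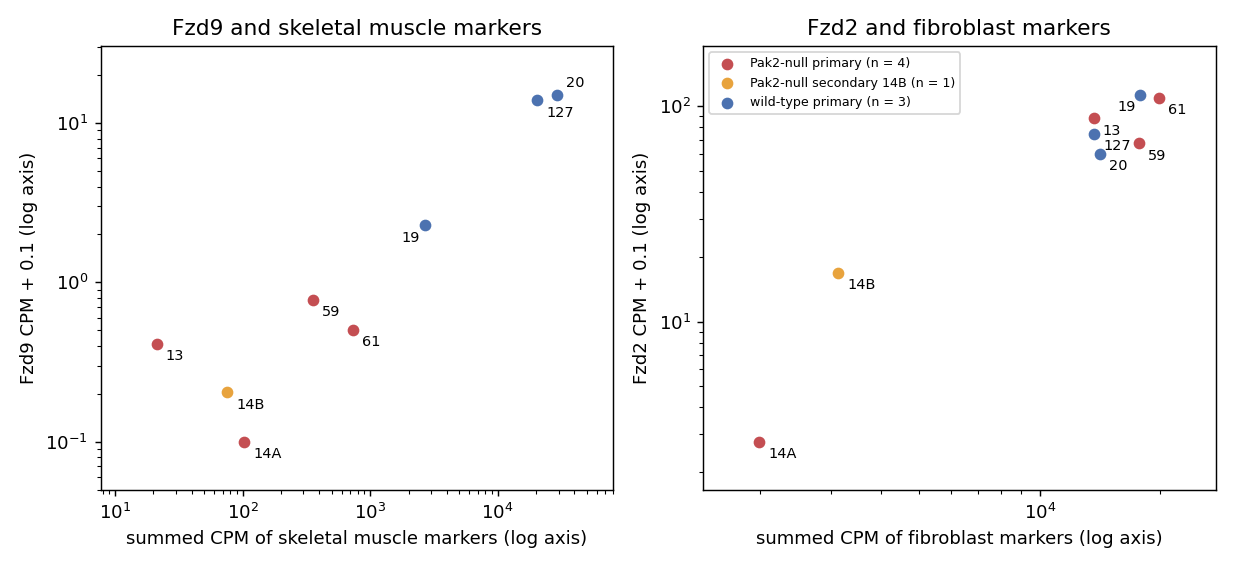
Left, Fzd9 CPM plus 0.1 against the summed CPM of 9 skeletal muscle markers, and right, Fzd2 CPM plus 0.1 against the summed CPM of 7 fibroblast markers, with 1 point per tumour and log axes. Wild-type tumours 20 and 127 hold the highest Fzd9 and muscle values, and tumours 14A and 14B the lowest Fzd2 and fibroblast values.

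Partners of the receptors were described from 9 lists of 68 genes, of which 58 were tested. At an adjusted p under 0.05 over all genes edgeR called 0 of them, beside 0.0714% of all tested genes. By unadjusted p under 0.05 there were 9 lower and 0 higher, beside 8.55% and 4.39% of all tested genes. DESeq2 called 7 lower (Musk, Tspan12, Shisa2, Sfrp5, Nkd1, Axin2 and Nkd2) of the 52 for which it gave an adjusted p. Over all 15412 tested genes, those without a DESeq2 adjusted p included, it called 5.44% lower. By limma-voom with sample quality weights 6 were lower (the same without Sfrp5), beside 4.59% of all genes. By limma-voom without weights 0 were, beside 0.130%. No partner was called higher by these tools. Of the Fzd4 and Norrin partners, Tspan12, a tetraspanin that enhances Norrin signalling through Fzd4, stood at 3.16, 4.81, 4.51 and 3.65 CPM in tumours 13, 59, 61 and 14A, against 10.7, 30.4 and 53.1 CPM in wild-type tumours 19, 20 and 127. The groups did not overlap, and its log2 fold change was -2.94 (SE 0.52), with an adjusted p of 0.104 (edgeR quasi-likelihood, Benjamini-Hochberg) and a range of 1.83e-05 (DESeq2) to 0.563 over 21 alternatives. Without tumours 20 and 127 it was -1.36. Ndp, which encodes Norrin, was at most 5.80 CPM, in tumour 59, and reached 0.993 CPM in the wild-type tumours.

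Of the receptor kinases and co-receptors 6 of 7 had a lower and 1 a higher fitted level, and the median on the log2 scale was -0.34. Musk, a muscle receptor kinase that carries a Frizzled-like domain, stood at 0.372, 0.494, 1.27 and 0 CPM in tumours 13, 59, 61 and 14A, against 4.08, 23.8 and 63.5 CPM in wild-type tumours 19, 20 and 127. Its log2 fold change was -5.80 (SE 1.32), and -2.88 without tumours 20 and 127. The co-receptor gene Lrp5 had a log2 fold change of -0.72 (SE 0.28), with 69.6 to 85.3 CPM against 85.8 to 189 CPM. The groups of Lrp5 met almost at 1 value, between tumours 61 and 20, and its log2 fold change was -0.39 without tumour 127.

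The antagonists of Frizzled did not move as 1 group. Shisa2, which holds Frizzled back in the endoplasmic reticulum, stood at 0.372, 1.60, 2.54 and 0.565 CPM in tumours 13, 59, 61 and 14A, against 22.4, 64.9 and 40.6 CPM in wild-type tumours 19, 20 and 127. Its log2 fold change was -5.05 (SE 0.75), with an adjusted p of 0.0823 (edgeR quasi-likelihood, Benjamini-Hochberg), and -4.09 without tumours 20 and 127. DESeq2 and limma-voom with sample quality weights called it lower (adjusted p = 1.55e-09 and 0.0134), with a range of 1.55e-09 to 0.452 over 21 alternatives. Its relative Shisa3, the other gene of that list, had a log2 fold change of 2.44 (SE 2.31), with 0, 0.185, 0.116 and 41.6 CPM in tumours 13, 59, 61 and 14A, against 2.23, 3.29 and 0.321 CPM in wild-type tumours 19, 20 and 127. Tumour 14A alone was above the wild-type tumours. Of 5 secreted Frizzled-related genes 4 had a lower fitted level (median -1.23 on the log2 scale), and Sfrp5, Sfrp2 and Frzb were at -4.11 (SE 1.30), -2.66 (SE 1.08) and 1.45 (SE 0.67). Wild-type tumour 19 was highest for the first pair, with Sfrp5 at 37.9 CPM against 8.19 and 2.25 CPM in tumours 20 and 127, and Sfrp2 at 683 CPM against 83.1 and 225 CPM. Without tumour 19 Sfrp5 was at -2.50 and Sfrp2 at -1.57, and without tumours 19 and 20 Sfrp5 was at -1.28. Turnover genes were split 4 to 4, with a median of -0.05. Znrf3, itself a target of beta-catenin, stood at 7.18 to 10.6 CPM against 12.0 to 14.5 CPM, a log2 fold change of -0.49 (SE 0.28).

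Downstream of the receptors the lists differed. Of 9 genes of Dishevelled and the beta-catenin destruction complex 4 had a lower and 5 a higher fitted level, with a median of 0.05, and 0 had an unadjusted p under 0.05. Dvl2, Dvl1 and Ctnnb1 were at 0.53 (SE 0.26), -0.55 (SE 0.36) and -0.40 (SE 0.32). Dvl1 turned to 0.50 without tumours 20 and 127, and Ctnnb1 was at -0.15 without tumour 19. Of 7 planar polarity genes 4 were lower and 3 higher, with a median of -0.07. Wnt ligands were split 6 to 6 over 12 tested, with a median of -0.14. Of 6 tested feedback targets of beta-catenin 5 were lower, with a median of -1.17, and Nkd1, Axin2 and Nkd2 had groups that did not overlap, with differences on the log2 scale of -2.38 (SE 0.57) for Nkd1, -1.86 (SE 0.50) for Axin2 and -1.69 (SE 0.51) for Nkd2. Over all genes 8.93% had such groups. DESeq2 gave Nkd1, Axin2 and Nkd2 adjusted p of 0.00186, 0.00728 and 0.0365, and limma-voom with sample quality weights gave 0.0378, 0.0267 and 0.0394. Over 21 alternatives the adjusted p reached 0.514, 0.648 and 0.735. Without tumours 20 and 127 the log2 fold changes were -2.53, -2.04 and -1.35. Smo, the Hedgehog transducer that shares the Frizzled fold, was at -0.51 (SE 0.63).

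**Figure D5:**
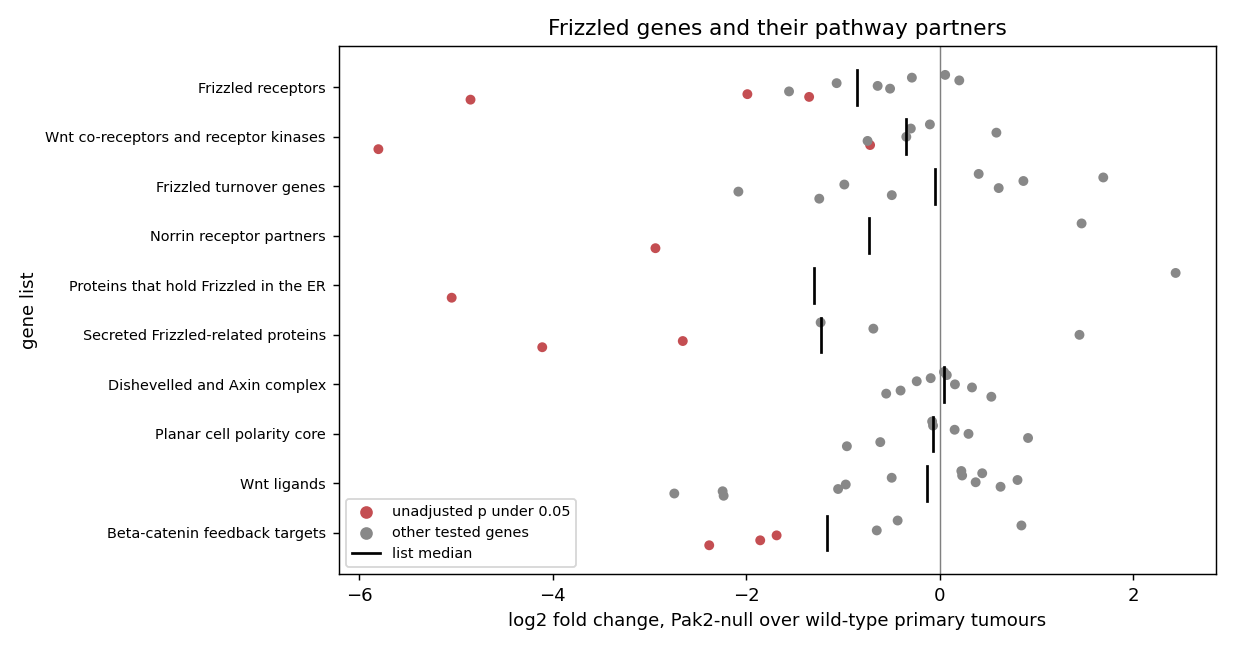
Log2 fold change of each tested gene, primary tumours labelled Pak2-null over wild-type primary tumours, by list, with the list median as a black line and genes with an unadjusted p under 0.05 in red. The red genes all lie below 0, and the medians run from -1.30 to 0.05. The lowest is that of the proteins that hold Frizzled in the endoplasmic reticulum, with 2 genes of opposite sign, Shisa2 (-5.05) and Shisa3 (2.44). The highest is that of Dishevelled and the Axin complex.

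The genes most like each receptor were taken by Pearson correlation of log2 CPM over the 8 tumours, as a description in which all genes share the same libraries. Those closest to Fzd9 were Tmem38a (r = 0.991), Tppp3 (0.987) and Srl (0.986), of which Tmem38a and Srl encode proteins of the muscle sarcoplasmic reticulum. Srl stood at 3.78, 6.73, 12.6 and 1.34 CPM in tumours 13, 59, 61 and 14A, against 36.5, 411 and 469 CPM in wild-type tumours 19, 20 and 127. Closest to Fzd4 were Atp1b2 (0.972), Tmod4 (0.970) and Synm (0.966), where Tmod4 and Synm encode a thin filament cap and an intermediate filament protein of muscle.

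Fzd2 was most like Kdelr3 (0.988), Pcdh18 (0.984) and Snai1 (0.983), a repressor of epithelial genes. Snai1 stood at 46.9, 40.8, 43.6 and 3.70 CPM in tumours 13, 59, 61 and 14A and at 9.54 CPM in tumour 14B, against 70.8, 31.3 and 43.0 CPM in wild-type tumours 19, 20 and 127. Fzd1 was most like Enc1 (0.992), Mlkl (0.982) and the basement membrane collagen gene Col18a1 (0.975). Fzd8 was most like Etl4 (0.996), Abca5 (0.995) and Svil (0.987), and Fzd5 like the polarity gene Pard3 (0.985), the cadherin gene Fat1 (0.983) and Tle2 (0.978). Fzd10 was most like the smooth muscle myosin gene Myh11 (0.948), with 2.60, 8.70, 4.33 and 19.4 CPM in tumours 13, 59, 61 and 14A, against 41.4, 28.1 and 30.2 CPM in the wild-type tumours. For Fzd3, Fzd6 and Fzd7 the closest genes were Cep78 (0.933), Mpst (0.932) and Smarcal1 (0.965).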

How the data were processed

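RNA sequencing libraries of 8 mouse tumours were counted per gene. The authors deposited unnormalised read counts, 1 column per tumour and none pooled, with a gene length in bases. The submitters' processing notes name STAR, HTSeq and the builds GRCm38 and mm10, and no version, annotation release or strand setting is known here. Tumours were grouped by the labels' Pak2 genotype, and the secondary tumour 14B stayed out of the test. Counts of the 7 primary tumours went into the quasi-likelihood test of edgeR 4.0.16 (R 4.3.3) with TMM factors, filterByExpr (minimum count 10, minimum total 15), no covariate, and Benjamini-Hochberg adjustment at 0.05 over 15412 genes. Each SE was taken as the absolute log2 fold change over the root of its F statistic. CPM rests on TMM-scaled library sizes of all 8 tumours, and log2 CPM a prior count of 2. Alternatives used DESeq2 1.42.0 and limma 3.58.1. The fits were run on simulated counts, with a pass mark at a fixed spread between replicates but none at that estimated from these tumours. Recovery at the estimated spread is not reported here.

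The members, the 9 partner lists and the 9 marker lists were chosen with earlier results of these data known. Named genes are the members, up to 3 partners per list with the lowest p, Smo, Pak2, Nf2, and the 3 genes most correlated with each member (mean log2 CPM of at least 3). The marker genes, Xist, Ddx3y and the antisense genes were named after their values were seen. No 2 columns were identical, and the most similar pair, tumours 20 and 127, differed by a mean chi-square of 97.4 per gene.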

Additional observations from a re-analysis of the deposited data

Results flagged for a closer look

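In groups of 4 tumours the highest or lowest value was set against its nearest neighbour. For normally distributed values chance flags about 1 in 20 groups, but CPM need not be so distributed and more may be flagged. Of 39 genes looked at in the 4 primary tumours labelled Pak2-null, 6 stood out. Of these, 4 did so through tumour 14A and are not separate events. Fzd5 was lowest in tumour 14A at 6.73 CPM, with the next tumour at 16.5 CPM, and Fzd7 was highest there at 53.3 CPM, with the next at 31.7 CPM. Shisa3, a relative of Shisa2, was at 41.6 CPM in tumour 14A and at most 0.185 CPM in the other 3. Ctnnb1, which encodes beta-catenin, was lowest in tumour 14A at 372 CPM, with the next at 541 CPM. Ndp was highest in tumour 59 at 5.80 CPM, with the next at 0.578 CPM, and Wnt4 was highest in tumour 61 at 17.0 CPM, with the next at 2.04 CPM.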

How the results depend on the processing

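No paired analysis was possible because the groups share no replicate number. Over 21 alternatives, 193 values of single Frizzled genes kept direction and side of the threshold, 4 newly passed (Fzd4 and Fzd9, by DESeq2 and by limma-voom with quality weights) and 12 changed sign. The changes of sign were in Fzd1 (-0.19 by limma-voom, -0.12 with 14B added, -0.37 without tumours 20 and 127, and -0.35 to 0.37 leaving out 1 tumour), in Fzd2 (0.029 by limma-voom with weights, 0.12 without tumours 13 and 14A, and -0.62 to 0.11 leaving out 1) and in Fzd6 (-0.18 by limma-voom, and -0.50 to 0.47 leaving out 1). The count of Frizzled genes called was 0 by edgeR and 2 by DESeq2 and by limma-voom with weights, with 0 in the other alternatives, of which the CPM filter left 9 Frizzled genes. Over all genes edgeR called 11, with 20 for CPM above 1 in at least 3 tumours, 1149 by DESeq2, 25 by limma-voom, 950 with weights, 191 with 14B added, 0 to 59 leaving out 1 tumour (0 without tumours 13, 59, 61 or 20, 1 without 127, 59 without 19), and 0 without tumours 20 and 127, 19 and 20, or 13 and 14A. These last 3 sets were chosen after seeing the data, the first for muscle markers, the second because tumour 127 has Ddx3y as the tumours labelled Pak2-null do, and the third for tumours that stood apart; the lone wild-type tumour is assumed to vary like the others. Of 10 places in the order of levels over all tumours, 8 held without division by length and 8 with exon lengths of GENCODE M21. In that annotation Fzd1, Fzd3, Fzd4, Fzd6 and Fzd8 are longer than deposited. The cause of these changes was not tested. Fzd9 and Fzd10 rest on few counts, from 0 to 18 in the tumours labelled Pak2-null.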
